A study of Homo sapiens with 4 samples.

Results

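The open chromatin regions of human chromosome 8 are described here with and without extra PHF19 in AMO1 cells, a plasma cell line derived from a multiple myeloma. Overlapping ATAC-seq peaks of the 4 libraries were merged into 73729 regions of the hg38 genome on chromosomes 1 to 22 and X, and all 3118 merged regions on chromosome 8 were taken except those in a 3 Mb stretch ending at 130 Mb. That stretch, called the gap here, holds MYC with its flanks, and its 108 regions were left out. Of the 3118 regions, 986 lay on the short (p) arm, which ends near 45 Mb, and 2132 on the long (q) arm, 1674 of them below the gap and 458 above 130 Mb. The chromosome was chosen by the height ratios of its peaks between the PHF19 and empty vector libraries themselves. Those ratios are therefore a description, with no test.

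ATAC-seq was used to map open chromatin: the Tn5 transposase cuts accessible DNA and tags it for sequencing. The 4 groups, with 1 library each, were AMO1 cells transfected with a PCDH vector carrying PHF19, cells transfected with the empty PCDH vector, and a second pair with the same 2 vectors whose titles begin with IFN, a prefix the labels do not explain. The empty vector cells are labelled wild type in genotype, no other allele or agent is named, and the labels do not say whether a clone or a pool of transfected cells was sequenced. With 1 library per group there is no replicate, so no difference was tested. The intervals given cover only counting error or, for medians, the limited number of regions, taken as independent. They do not cover differences between libraries of a group.

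PHF19 is a Polycomb-like protein that binds methylated histone H3 and brings PRC2, the enzyme complex that methylates lysine on the same histone, to genes that are kept silent. Chromosome 8 carries on its short arm a set of death receptors and tumour suppressor candidates that are often lost in cancers, and on its long arm genes that are often gained, in myeloma among others. Its genes belong to many unrelated pathways, among them NF-kappaB signalling, B cell receptor kinases, ribosomal proteins and DNA repair.

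The libraries rested on 18.2 M (mega) fragments for PHF19 overexpression, 27.4 M for empty vector, 16.4 M for IFN PHF19 overexpression and 65.9 M for IFN empty vector. A peak of chromosome 8 was present in 2008, 1909, 2127 and 2800 of the regions in that order, so the deepest library held the most regions. The lowest heights called there were 0.439, 0.365, 0.489 and 0.243 fragments per M, again in that order. All 4 libraries held a peak in 1496 regions, and 760 regions had a peak in 1 library alone. A narrow peak inside PHF19 itself, on chromosome 9, reached 7.9 fragments per M with PHF19 overexpression and 7.33 with IFN PHF19 overexpression, and neither empty vector library had a peak there. The other regions inside PHF19 had peaks in all 4 libraries. None of them stood higher in both PHF19 libraries than in their empty vector partners. The origin of the narrow peak's fragments was not tested. Plasma cell markers such as IRF4, SDC1 and POU2AF1 had gene-end peaks in all 4 libraries, 8 of 8 genes. Of 10 markers of other cell types, 4 had one with PHF19 overexpression, 5 with empty vector, 4 with IFN PHF19 overexpression and 6 with IFN empty vector, and the myeloid genes CD14, LYZ and CSF1R and the lymphocyte gene NKG7 had none in any library. The T cell gene CD3E, the collagen gene COL1A1 and the epithelial genes EPCAM and KRT18 had gene-end peaks in all 4 libraries. CD3E reached 14.38 and 12.5 fragments per M, and 13.5 and 12.12 in the IFN-prefixed pair, and COL1A1 8.89 and 9.46, and 11.66 and 7.68, each time with the PHF19 library before its empty vector partner.

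Height means the largest fragment pileup of a region, scaled to 1 M fragments of its library. Log2 ratios of heights are PHF19 over empty vector and are centred on their median over every region called in both libraries of the pair, which was -0.11 for the unprefixed pair and 0.17 for the IFN-prefixed pair. In bulk cells, more cells with an open site, more cuts per open site and more copies of the DNA cannot be told apart by this measure.

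Regions of chromosome 8 stood higher in both PHF19 libraries than in their empty vector partners, by a median log2 ratio of 0.28 in each pair (95% interval over regions 0.26 to 0.31 in both, 1589 and 1924 regions). That is 1.22-fold. Regions above 0 made up 73.6% in the unprefixed pair and 73.3% in the IFN-prefixed pair, beside 49.0% and 48.8% on the other chromosomes. The median of the other chromosomes was -0.01 in both. Among 23 chromosomes, number 8 ranked 1 in both pairs, ahead of chromosome 2 at 0.13 and 0.1 and chromosome 4 at 0.11 and 0.09. As a share of all height over regions shared by the 4 libraries, the chromosome took 3.98% with PHF19 overexpression, against 3.32% with empty vector. The share was 4.01% with IFN PHF19 overexpression, against 3.37% with IFN empty vector.

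**Figure D1:**
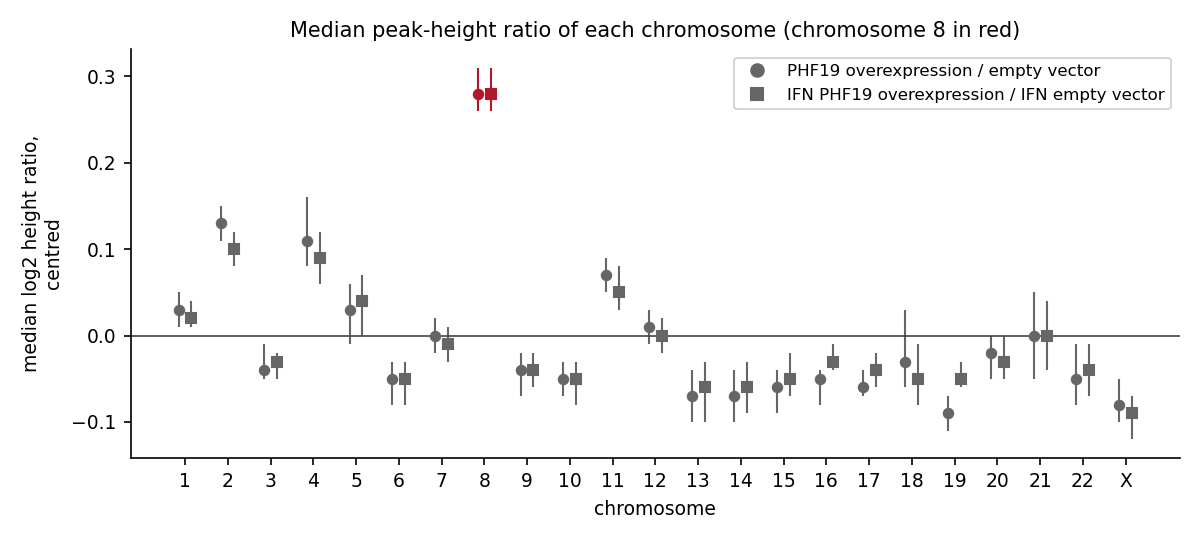
Median log2 peak-height ratio (centred, y axis) of each chromosome (x axis), circles for PHF19 overexpression over empty vector and squares for IFN PHF19 overexpression over IFN empty vector; bars are 95% intervals over regions. Chromosome 8, in red, sits at 0.28 in both pairs and the next chromosome at 0.13 and 0.1.

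The difference was not even along the chromosome. The p arm had medians of 0.39 (0.35 to 0.44, 537 regions) and 0.43 (0.38 to 0.46, 643 regions), equal to 1.31-fold and 1.34-fold. The q arm below the gap had 0.28 (0.26 to 0.32) and 0.27 (0.24 to 0.3). Above 130 Mb the medians were -0.01 (-0.06 to 0.06) and 0.02 (-0.03 to 0.09), within 0.03 of the other chromosomes. The last stretch of the long arm thus stood with the rest of the genome, while the p arm and most of the q arm did not. The p arm's share of all shared height was 1.36% with PHF19 overexpression and 1.06% with empty vector, and 1.37% with IFN PHF19 overexpression and 1.06% with IFN empty vector. For the stretch above 130 Mb the same shares were 0.63% and 0.634%, and 0.621% and 0.616%.

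Counted by region, 121 of 516 on the p arm (23.4%, Wilson 95% interval 20 to 27.3) were at or above 0.5 in both pairs, where 5.85% of regions on all chromosomes were. On the q arm the count was 109 of 980 (11.1%), 99 of 743 below the gap (13.3%) and 10 of 237 above 130 Mb (4.22%). At or below -0.5 in both pairs were 12 regions of the p arm (2.33%), 21 of the q arm below the gap (2.83%) and 16 above 130 Mb (6.75%), beside 7.1% on all chromosomes. The rule used these contrasts, so the counts describe the chromosome and show nothing beyond its choice. Restricting the count to regions with at least 20 fragments at the summit in every library, with the ratios centred anew, left 75 of 384 on the p arm. The 5.85% is for regions without this limit, and no share over all chromosomes was computed with it.

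In bins of 5 Mb with at least 20 shared regions, 24 of 28 bins were above 0 in both pairs and 2 were below 0 in both, beside 104 and 304 of the 496 bins of the other chromosomes. A median of at least 0.3 in both pairs was reached by 10 bins, against 5.73% of bins on all chromosomes, and 8 of the 10 were on the p arm, which has 9 such bins. The other 2 lay at 80 to 85 Mb (0.59 and 0.33, 47 regions) and at 85 to 90 Mb (0.35 and 0.3, 35 regions). Values ran from 0.26 to 0.59 on the p arm in the unprefixed pair and from 0.32 to 0.49 in the IFN-prefixed pair, so no p arm bin came near 0. Towards the far end of the q arm the bins were lower, with 0.21 and 0.17 at 100 to 105 Mb, 0.36 and 0.24 at 120 to 125 Mb, 0.02 and -0.01 at 125 to 130 Mb (up to the gap only), -0.09 and -0.13 at 130 to 135 Mb and -0.01 and 0.09 at 140 to 145 Mb. Without centring, 6 bins were at or above 0.3 in both pairs.

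**Figure D2:**
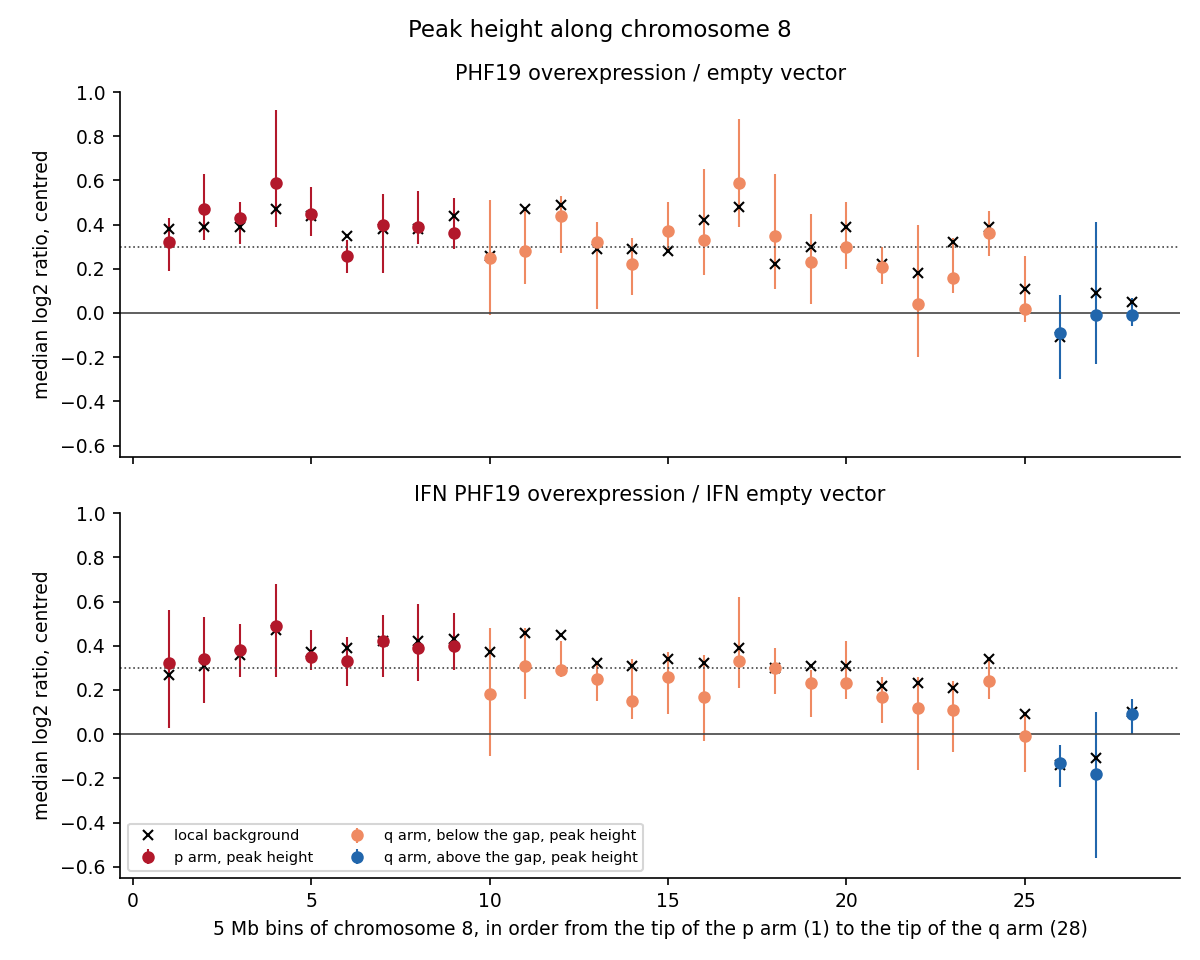
Median log2 ratio (centred, y axis) of the 28 bins of 5 Mb in order along chromosome 8 (x axis; a bin with under 20 shared regions is skipped), with PHF19 overexpression over empty vector above and the IFN-prefixed pair below. Coloured points are peak heights with 95% intervals over regions, crosses the local background, the dotted line 0.3; the p arm bins lie between 0.26 and 0.59 and the last 3 bins between -0.18 and 0.09.

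Finer bins of 1 Mb, with at least 5 shared regions, showed where the pattern broke. Of 100 such bins 30 were at or above 0.3 in both pairs, 19 of 32 on the p arm, 11 of 56 on the q arm below the gap and 0 of 12 above 130 Mb. Bins of this size were not made for the other chromosomes, so the counts have no share to be set against. The highest chromosome 8 bin was at 15 to 16 Mb (1.24 and 1.04, 6 regions), around TUSC3. On the p arm the bin at 29 to 30 Mb stayed at -0.0 and -0.07 over 23 regions, although its neighbours had 0.29 and 0.33 at 28 to 29 Mb and 0.39 and 0.42 at 30 to 31 Mb. Only the bin at 90 to 91 Mb was at or below -0.3 in both pairs (-0.61 and -0.57, 6 regions), and its local background was low as well (-0.3 and -0.38). The bin at 125 to 126 Mb, with 35 regions, had -0.01 in both pairs. Its 2 gene-end regions had medians of 0.27 and 0.29, and its 33 other regions, 20 of them inside NSMCE2, -0.01 and -0.01. Across the 28 bins of 5 Mb the medians of the 2 pairs, which share no library, had a Pearson r of 0.88 and a Spearman rho of 0.86, and across 496 bins of the other chromosomes r was 0.88 and rho 0.72. These values describe bins whose points share library and depth.

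The members at the edges of the gap were a region 318048 bp from LRATD2 at 126876526 to 126877252 and a region at the end of CYRIB, a regulator of the actin cytoskeleton, at 130014759 to 130017036. Their log2 ratios were 0.1 and 0.48 near LRATD2 and 0.04 and 0.25 at CYRIB. Neither edge therefore carried a large difference in both pairs.

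The p arm difference was alike in tall and low regions. Set against regions of the same mean height on the other chromosomes, the p arm median was higher by 0.44 and 0.45 under 1 fragment per M, by 0.4 and 0.44 from 1 to 2, by 0.4 and 0.38 from 2 to 5, by 0.43 and 0.4 from 5 to 10 and by 0.38 and 0.41 at 10 or more, for the unprefixed and the IFN-prefixed pair in each class. The q arm below the gap varied more, from 0.2 and 0.09 in the lowest class to 0.38 and 0.34 in the tallest. The stretch above 130 Mb stood within 0.08 of the other chromosomes in every class from 1 fragment per M upward. Place made little difference too: p arm gene-end regions, which come within 1000 bp of the start or end coordinate of a protein-coding gene, stood 0.4 and 0.45 above gene ends of the other chromosomes, and p arm regions away from gene ends 0.39 and 0.43 above theirs.

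On the p arm the DNA around the peaks differed by about as much as the peaks. The peak caller's own local background, read from the deposited pileup and fold enrichment, could be recovered above its floor for 78.4% and 74.0% of shared p arm regions. Its median on the p arm was 0.354 fragments per M with PHF19 overexpression and 0.287 with empty vector, and 0.311 with IFN PHF19 overexpression and 0.249 with IFN empty vector. The centred log2 ratio of the background was 0.39 (0.38 to 0.42) and 0.38 (0.35 to 0.41) on the p arm, beside 0.39 and 0.43 for the heights. It was 0.32 and 0.31 on the q arm below the gap, 0.03 and 0.04 above 130 Mb and -0.01 and -0.01 on the other chromosomes. A window around a peak also holds the peak's own fragments and those of its neighbours. For regions with no other region within 10 kb the background ratio stayed at 0.39 and 0.39 on the p arm, and at 0.36 and 0.33 on the q arm below the gap. With the tallest 50% of regions left out, the p arm background ratio of the IFN-prefixed pair was 0.23, over 57 regions, against 0.38 over all. Across the 28 bins of 5 Mb, height and background medians had r of 0.88 and rho of 0.79 in the unprefixed pair and 0.91 and 0.81 in the IFN-prefixed pair, over values from the same libraries. The part of the background in the height difference was not tested.

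**Figure D3:**
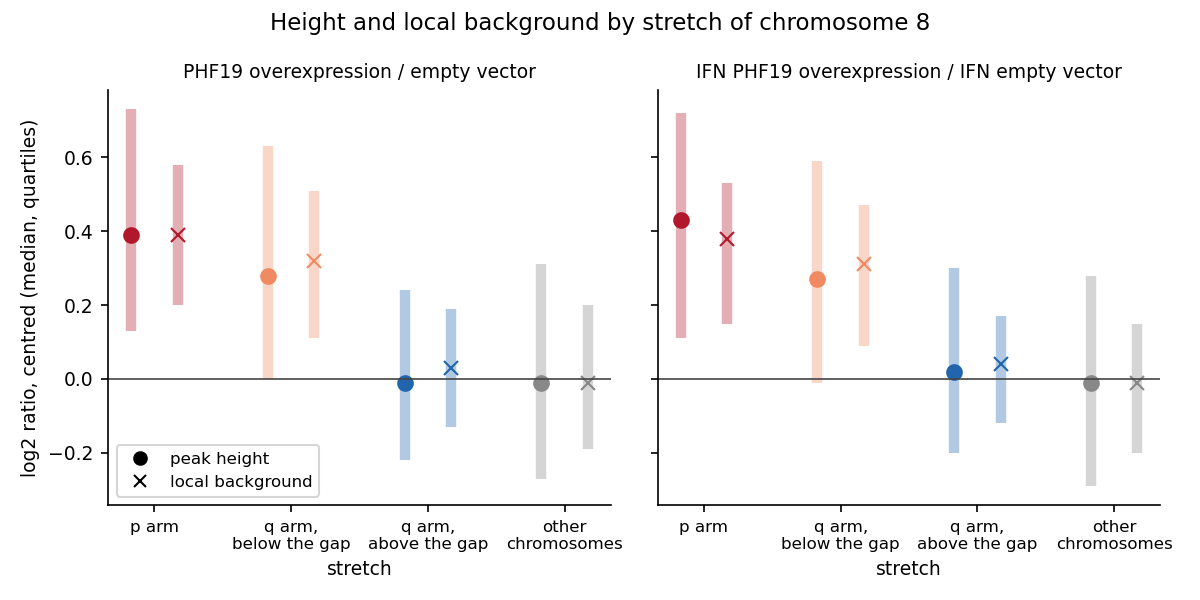
Centred log2 ratios (y axis) of peak height (circles) and local background (crosses) for the p arm, the q arm below and above the gap and the other chromosomes (x axis), with the unprefixed pair on the left and the IFN-prefixed pair on the right; symbols are medians and bars span the quartiles. On the p arm height and background lie at 0.39 and 0.39 in the unprefixed pair and 0.43 and 0.38 in the IFN-prefixed pair, above the gap between -0.01 and 0.04.

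Whether a peak was called at all followed the heights. Of the p arm peaks of the PHF19 overexpression library 20.9% (18.1 to 24.1) had no peak in the empty vector library, beside 12% for all chromosomes, and of the empty vector library's p arm peaks 14.8% had none with PHF19 overexpression, beside 21.5%. In the IFN-prefixed pair these shares were 10.1% for IFN PHF19 overexpression, beside 4.48%, and 26.4% for IFN empty vector, beside 38.2%. The lists differ in length, and the deeper empty vector libraries call weaker peaks. With every list limited to its 44090 strongest peaks, the p arm shares were 26.1% for PHF19 overexpression and 10.0% for empty vector, and 25.9% for IFN PHF19 overexpression and 9.71% for IFN empty vector. On the other chromosomes the same lists gave 14.9% and 16.1%, and 15.1% and 16.9%. A peak in both PHF19 libraries and in neither empty vector library was present in 57 of the 3118 regions (1.83%, beside 0.528% on the other chromosomes), and the reverse in 173 (5.55%, beside 8.77%).

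**Figure D4:**
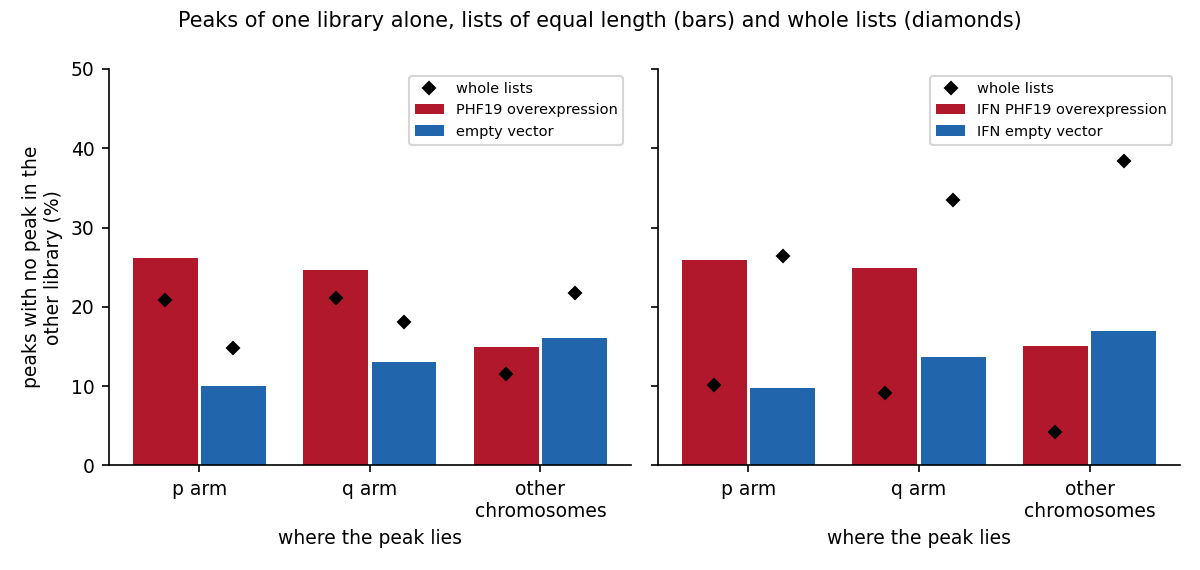
Percent of the peaks of a library (y axis) without an overlapping peak in the other library of its pair, on the p arm, the q arm and the other chromosomes (x axis), for the PHF19 library (red) and its empty vector partner (blue), unprefixed on the left and IFN-prefixed on the right; bars use lists of equal length, diamonds whole lists. On the p arm the bars are 26.1% and 10.0% on the left and 25.9% and 9.71% on the right.

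Most peaks of one side alone were low. The tallest on the PHF19 side were inside SGCZ, a sarcoglycan of muscle membranes (2.03 fragments per M with PHF19 overexpression and 1.89 with IFN PHF19 overexpression), inside NRG1, a growth factor for ERBB receptors (1.21 and 1.47), and inside VPS13B, a lipid transfer protein of the Golgi (1.32 and 1.59). Taller ones stood on the empty vector side. TRIB1, a pseudokinase that scaffolds protein degradation, held an inner peak at 125434470 to 125435066 with no peak in either PHF19 library, 6.1 in the empty vector library and 5.74 in the IFN empty vector library. A region inside SLA and TG, an adaptor of lymphocyte receptor signalling and thyroglobulin, had 5.23 and 5.05 in the empty vector libraries alone, and one at TMEM276 and ZFTRAF1 had 5.3 and 4.72. On the p arm a region 132470 bp from CLDN23, a tight junction gene, had 3.65 and 3.79.

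Gene ends carried the difference across unrelated pathways. Of 376 chromosome 8 gene-end regions with a peak in all 4 libraries, 45 (12%) were at or above 0.5 in both pairs and 3 at or below -0.5, beside 3.16% and 1.89% of gene ends on all chromosomes. They comprised 26 of 129 on the p arm (20.2%), 17 of 169 on the q arm below the gap (10.1%) and 2 of 78 above 130 Mb (2.56%). In 9 lists of chromosome 8 genes, 128 of 157 genes had such a region, with medians of 0.27 and 0.33. Of these, 104 genes were above 0 in both pairs, 7 below 0 in both, 16 at or above 0.5 in both and 0 at or below -0.5. By stretch, the 40 p arm genes had medians of 0.34 and 0.44, the 67 q arm genes below the gap 0.27 and 0.3, and the 21 genes above 130 Mb -0.07 and 0.1. All 404 protein-coding genes with such a region, out of 680, had medians of 0.25 and 0.31. Of the 404, 311 were above 0 in both pairs, 30 below 0 in both, 44 at or above 0.5 in both and 2 at or below -0.5. The listed genes were thus much like all genes of the chromosome.

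In the list of developmental transcription factors, a class that holds many Polycomb targets, 9 of 24 genes had a gene-end region in all 4 libraries, beside 404 of 680 genes of the chromosome. The list also holds GDF6, a growth factor. GATA4, SOX7, SOX17 and SNAI2 had no called region at their ends. The 9 had medians of 0.23 and 0.21, beside 0.25 and 0.31 for all genes of the chromosome. The 5 on the q arm below the gap had 0.24 and 0.1, beside 0.26 and 0.3 for all genes of that stretch. OSR2, a zinc finger gene of limb and palate development, had 14.27 fragments per M with PHF19 overexpression and 10.93 with empty vector, and 15.57 and 9.56 in the IFN-prefixed pair. Its ratios were 0.5 (just under that level before rounding) and 0.54. HEY1, a Notch target, had 9.82 and 9.06, and 9.16 and 7.59. Its ratios were 0.23 (-0.06 to 0.51) and 0.1 (-0.17 to 0.37).

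Chromatin regulators had medians of 0.19 and 0.25 over 16 of 18 genes. NSD3, a histone H3 methyltransferase on the p arm, had 9.88 fragments per M with PHF19 overexpression and 6.25 with empty vector, and 9.28 and 5.08 in the IFN-prefixed pair, with ratios of 0.77 (0.46 to 1.08) and 0.7 (0.42 to 0.98). The ends of ASH2L, a subunit of the complexes that methylate lysine for active promoters, and of the acetyltransferase KAT6A stood at 0.31 and 0.33 and at 0.31 and 0.28. On the q arm RAD21, a cohesin subunit, had 0.2 and 0.24. PHF20L1, TONSL, HSF1 and BOP1 lie above 130 Mb and had ratios between -0.07 and 0.13 in the unprefixed pair and between -0.32 and 0.35 in the IFN-prefixed pair, HSF1 and BOP1 sharing 1 region.

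NF-kappaB and immune signalling genes had medians of 0.29 and 0.41 over 18 of 21 genes, with 5 of the 18 at or above 0.5 in both pairs, beside 44 of 404 genes of the chromosome. IKBKB, the kinase that triggers NF-kappaB release, had 5.76 fragments per M with PHF19 overexpression and 4.49 with empty vector, and 6.35 and 3.57 in the IFN-prefixed pair, with ratios of 0.47 (0.08 to 0.86) and 0.67 (0.32 to 1.0). BLK, a Src-family kinase of B cells, had 4.39 and 2.34, and 4.21 and 2.15, with ratios of 1.02 (0.53 to 1.52) and 0.8 (0.36 to 1.22). Its relative LYN on the q arm had 13.77 and 12.02, and 14.05 and 9.53, with 0.31 and 0.39 at its gene end. At these 3 kinase genes, picked after their values were seen, both libraries with PHF19 stood above both without it. PRKDC, another kinase gene of the list, did not follow. It had 10.48 and 11.4, and 11.97 and 7.62, with ratios of -0.01 and 0.48. PAG1, a membrane adaptor that holds Src kinases in check, had 0.51 and 0.79, and IL7, a lymphocyte growth factor, 0.76 and 0.78. RIPK2, the kinase downstream of NOD receptors, had -0.09 and 0.23, so not every member was higher in both pairs.

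B and plasma cell genes, a list that shares BLK, LYN, TOX, PAG1 and IL7 with the previous one, had medians of 0.38 and 0.55 over 14 of 15 genes. TOX, a nuclear factor of lymphocyte development, had 2.96 fragments per M with PHF19 overexpression and 1.35 with empty vector, and 2.99 and 1.32 in the IFN-prefixed pair, with ratios of 1.24 (0.61 to 1.89) and 1.01 (0.48 to 1.53). Above 130 Mb, ZFAT, a zinc finger gene of lymphocyte survival, had 8.12 and 10.49, and 8.98 and 8.66, with ratios of -0.26 and -0.12. ASAP1, a GTPase activator of membrane traffic, departed from its surroundings: it had 4.77 and 2.52, and 5.13 and 2.02, with ratios of 1.03 (0.56 to 1.51) and 1.18 (0.77 to 1.58).

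Death receptor and apoptosis genes had medians of 0.3 and 0.25 over 10 of 12 genes. At or above 0.5 in both pairs were 0 of the 10, beside 44 of 404 genes of the chromosome. The TRAIL receptor genes lie side by side on the p arm. TNFRSF10A had 0.04 and 0.23, TNFRSF10B 0.34 and 0.27, and the decoy receptor TNFRSF10D 0.39 and -0.01. TNFRSF10C, the other decoy, rested on heights of 0.66 and 0.51, and 1.04 and 0.53, and its intervals of -0.77 to 1.7 and -0.13 to 1.67 include 0. BNIP3L, which marks mitochondria for removal, had 15.97 fragments per M with PHF19 overexpression and 11.91 with empty vector, and 15.69 and 10.04 in the IFN-prefixed pair, with ratios of 0.53 (0.3 to 0.77) and 0.48 (0.26 to 0.69).

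Genes that cancers gain or lose had medians of 0.36 and 0.3 over 19 of 24. The 4 on the p arm were all above 0 in both pairs, as were 123 of 133 p arm genes. FGFR1, a growth factor receptor, had 10.15 fragments per M with PHF19 overexpression and 6.87 with empty vector, and 11.3 and 5.01 in the IFN-prefixed pair, with ratios of 0.67 (0.37 to 0.97) and 1.01 (0.74 to 1.27). TUSC3, an oligosaccharyltransferase subunit and tumour suppressor candidate, had 2.91 and 1.46, and 3.91 and 1.79, with 1.1 and 0.96. Above 130 Mb, NDRG1, a stress-responsive metastasis suppressor, had 14.05 and 16.81, and 15.02 and 12.78, with ratios of -0.15 and 0.07. CSMD3 is a case where the pairs parted, with 1.95 (0.98 to 3.01) and -0.03 (-0.8 to 0.68), from 1.7 and 0.48 in the unprefixed pair and 1.28 and 1.17 in the IFN-prefixed pair.

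The broadly active genes showed the same order of size. Ribosome, translation and housekeeping genes had medians of 0.22 and 0.32 over 32 of 33 genes, secretory pathway genes 0.33 and 0.26 over 16 of 16, and cell cycle and DNA repair genes 0.27 and 0.42 over 20 of 21. Among the ribosomal proteins, RPL7 and RPL30 on the q arm had 0.27 and 0.59 and 0.15 and 0.18, and RPL8, above 130 Mb, -0.15 and 0.16. PPP2CB, a phosphatase subunit on the p arm, had 0.74 and 0.6, and POLR3D, an RNA polymerase III subunit, 0.46 and 0.55. Of the 32, CHMP7, an ESCRT component, was the p arm gene below 0 in both pairs (-0.17 and -0.27). ZDHHC2, a palmitoyltransferase, had 0.59 and 0.58, and the repair glycosylase NEIL2 0.57 and 0.43.

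**Figure D5:**
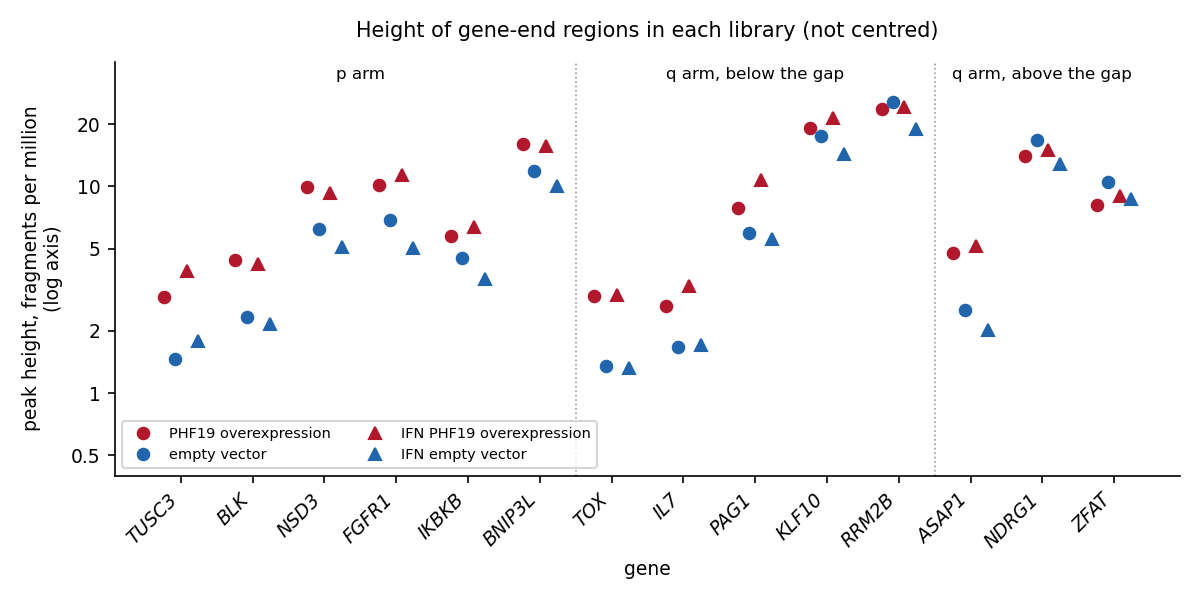
Peak height in fragments per M (y axis, log scale, not centred) at the ends of 14 genes (x axis), picked after their values were seen, in PHF19 overexpression (red circles), empty vector (blue circles), IFN PHF19 overexpression (red triangles) and IFN empty vector (blue triangles). At TUSC3 the heights are 2.91, 1.46, 3.91 and 1.79 in that order, and at RRM2B they are 23.76, 25.54, 24.12 and 18.89.

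The 5 tallest regions of the p arm all lay at or below the p arm medians. They were the shared region of CDCA2 and KCTD9, FDFT1 (inside the gene), AP3M2, ASH2L and the region of VDAC3 and DKK4, with ratios between 0.13 and 0.31 in the unprefixed pair and between 0.18 and 0.39 in the IFN-prefixed pair. RRM2B, a ribonucleotide reductase subunit induced by p53, was the tallest of the q arm, with 23.76 fragments per M with PHF19 overexpression and 25.54 with empty vector, and 24.12 and 18.89 in the IFN-prefixed pair. Its ratios were 0.01 (-0.17 to 0.18) and 0.19 (0.02 to 0.35). KLF10, a TGF-beta response factor, had 0.24 and 0.41, the region of ENY2 and NUDCD1 0.29 and 0.38, and the gene end of TRIB1 0.27 and 0.42. The region of MAF1, a repressor of RNA polymerase III, and SHARPIN lies above 130 Mb and had -0.14 and 0.09.

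Single regions went strongly against the chromosome. At or below -0.5 in both pairs were 2.33% of p arm and 3.78% of q arm regions. On all chromosomes 7.1% were. Of 284 p arm regions with a mean height of at least 2, 211 were above 0 in both pairs and 35 below 0 in both. Of 560 on the q arm, 295 were above and 132 below. Shares over the other chromosomes were not computed with this height limit. The lowest on the p arm lay 13269 bp from ADAM2, a sperm surface protein, at 39851496 to 39853255. It had 1.21 fragments per M with PHF19 overexpression and 6.07 with empty vector, and 1.28 with IFN PHF19 overexpression and 4.34 with IFN empty vector, with ratios of -2.22 (-2.93 to -1.57) and -1.93 (-2.64 to -1.29). A region inside ADGRA2, an adhesion receptor of brain vessels, had 1.87 and 4.75, and 1.95 and 4.19, with -1.24 and -1.27. Inside LYN, 55929923 to 55930963, heights were 0.6 and 3.76, and 1.34 and 3.37, with ratios of -2.53 (-3.58 to -1.63) and -1.49 (-2.2 to -0.86), while the LYN gene end described above was higher. Others of this kind lay near ODF1 (-1.65 and -2.2), inside RSPO2, a WNT enhancer (-1.4 and -1.86), and inside NCALD, a neuronal calcium sensor (-0.85 and -0.98).

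At the other extreme, a region 258401 bp from BPNT2 at 57252268 to 57253216 had 3.79 fragments per M with PHF19 overexpression and 1.57 with empty vector, and 5.62 and 1.61 in the IFN-prefixed pair, with ratios of 1.38 (0.81 to 1.96) and 1.64 (1.22 to 2.05). A region inside XKR9 had 1.64 and 1.25, the end of CIBAR1, a ciliary protein gene, 1.43 and 1.13, and a region 234152 bp from RALYL 1.17 and 1.32. These regions, like those near ADAM2 and inside LYN, were picked for large ratios of the same sign in both pairs. That the pairs agree there follows from the choice.

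Between IFN-prefixed and unprefixed libraries the chromosome 8 medians were near 0. These contrasts were not used to choose the chromosome, though they reuse its libraries. On the p arm the median log2 ratio was 0.04 (-0.0 to 0.04) for IFN PHF19 overexpression over PHF19 overexpression and 0.01 (-0.03 to 0.03) for IFN empty vector over empty vector. On the q arm below the gap the medians were 0.04 (0.03 to 0.07) and 0.07 (0.04 to 0.11), and above 130 Mb -0.04 and -0.04. Not every bin was near 0. At 140 to 145 Mb, over 142 regions, the medians were -0.08 (-0.11 to -0.02) and -0.22 (-0.28 to -0.13).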

How the data were processed

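ATAC-seq peak lists of 4 AMO1 libraries were used, 1 per group, assigned from their labels. Per the file headers, the authors called peaks for each library with MACS2 2.1.2 on paired fragments without a control, at a q of 0.01, with duplicates kept and an effective genome size of 3000000000. The submitters' processing notes name Trimmomatic 0.38, bcl2fastq 2.17, DiffBind and hg38, with neither the aligner nor any Tn5 shift given in the sources used here. In each list the deposited pileup is the signal, unscaled fragment coverage at a summit. The deposited -log10 q-value and -log10 p-value rank and filter peaks within a list, and the deposited fold enrichment, a ratio, gave the local background as (pileup + 1)/fold - 1, used where it exceeded 1.05 times the genome-wide floor in both libraries and scaled to fragments per M.

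Summits were collapsed to peaks, peaks overlapping by at least 1 bp were merged, and the height ratio of regions with a peak in both libraries was centred on the median over all chromosomes. Intervals are exact for a ratio of counts, Wilson for shares, and by order statistics for medians. Those for medians treat neighbouring regions as independent. Kept duplicates are not independent molecules, so counting intervals are too narrow. Gene positions came from RefSeq on hg38 without strand, so a gene end can be a start or a far end. With 1 library per group no test was run. Promoter sequences are not shown. Merging equalled bedtools 2.31.1 (73729 regions), and the ratio step, tested on simulated data of 35731 regions with 200 shifted by 0.4, gave a mean of 0.4. Named genes were members of the 9 lists with a gene-end region in all 4 libraries, the 5 highest, 5 lowest and 5 tallest regions per arm and the 3 tallest one-sided regions per direction and arm. Those given in the text are a choice among them made after seeing values. Some genes picked by this rule are not reported here. The chromosome, lists and stretches were chosen with earlier results of these data known. Python 3.11.15, pandas 2.3.3, numpy 2.4.6 and scipy 1.17.1 were used.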

Additional observations from a re-analysis of the deposited data

How the results depend on the processing

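No paired analysis was possible because each group holds only replicate 1, so the groups share no second number. A fit of the vector with the prefix as a term, which leaves 1 residual degree of freedom, was not run. No library was left out in turn, since each is the whole of its group. The p arm, q arm and q arm below the gap medians stayed above 0 in both pairs under every alternative run. Values are given for the unprefixed and then the IFN-prefixed pair, and the cause of each move was not tested except for centring, which adds a constant. Without centring the medians were 0.28 and 0.59 on the p arm, 0.11 and 0.38 on the q arm, 0.17 and 0.44 on the q arm below the gap and -0.12 and 0.19 above 130 Mb. Over regions in all 4 libraries the IFN-prefixed medians were 0.38, 0.17 and 0.22 for the first 3 of these. At gene ends they were 0.34 and 0.46 on the p arm, 0.26 in the IFN-prefixed pair on the q arm and 0.13 above 130 Mb. With the height trend removed the q arm of the IFN-prefixed pair was at 0.18. With at least 20 fragments at the summit, regions at or above 0.5 in both pairs numbered 75 of 384 (p arm), 72 of 738 (q arm) and 6 of 187 (above 130 Mb). The counts at gene ends were 26 (p arm), 19 (q arm), 17 (q arm below the gap) and 2 (above 130 Mb), out of fewer regions. Without centring 6 bins of 5 Mb passed 0.3. The split of the q arm at the gap and the isolated regions were added after seeing the data.

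Shares of p arm and q arm peaks without a partner at a q of 1e-05 were 12.8% and 12.3% for PHF19 overexpression, 10.0% and 13% for empty vector, 6.25% and 5.83% for IFN PHF19 overexpression and 21.7% and 27.9% for IFN empty vector. This q limit was applied to the peaks counted, while the partner's list was kept whole. Shares of the other chromosomes were not computed at this q or at an overlap of 50%. With an overlap of 50% they were 25% (p arm) for PHF19 overexpression, 18.6% and 23.2% for empty vector and 33.6% and 41.9% for IFN empty vector. With lists of equal length they were 26.1% and 24.6% for PHF19 overexpression, 10.0% and 13% for empty vector, 25.9% and 24.9% for IFN PHF19 overexpression and 9.71% and 13.7% for IFN empty vector. The q arm background ratio was 0.33 and 0.18 with the tallest 50% of regions left out, and 0.31 and 0.27 for isolated regions. The p arm background of the IFN-prefixed pair was 0.23 over 57 regions with the tallest 50% left out. Low depth, 8 fragments for the lowest peaks of both PHF19 libraries, limits one-sided calls.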
